A study of Mus musculus with 6 samples.

Results

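The genes described here are 10 genes of the visceral endoderm, the outer absorptive and secretory epithelium of the early mouse embryo: Ttr, Afp, Apoa1, Apob, Apoe, Rbp4, Cubn, Amn, Dab2 and Spink1. They were chosen by name for their role, with earlier results of these data known, and 25 probe sets named 1 of them alone, of 45037 probe sets and 18193 genes with a probe set of their own. RNA of 6 samples of mouse embryonic stem (ES) cells and their derivatives had been hybridised to Affymetrix arrays, 1 array for each of 2 lines at days 0, 4 and 7. Both lines are triple knockout (TKO) cells in which Dnmt1, Dnmt3a and Dnmt3b, which encode the enzymes that methylate DNA, have been inactivated, and each has been given back one form of DNMT1 under ubiquitous expression. In the deletion line this DNMT1 lacks the N-terminal 602 amino acids, and in the full-length line it is complete. The labels name 1 line for each form and no clone number or promoter, so DNMT1 form and line cannot be told apart. Day 0 cells grew in 10% FBS and LIF, the leukaemia inhibitory factor that holds them undifferentiated. One source label calls the deletion line's day 0 sample differentiated, against its title, which was followed. Day 4 cells had been kept without LIF, for 1 day as embryoid bodies and for 3 days attached. Day 7 cells had then spent 3 days in medium with 10% KSR and 10 ng/ml Activin A, which the submitters added to bring on primitive streak formation.

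In the embryo the visceral endoderm takes up maternal nutrients from its outer side and secretes carrier proteins and lipoproteins, much as the fetal liver does later. Transthyretin (Ttr) and retinol-binding protein (Rbp4) carry thyroid hormone and vitamin A, alpha-fetoprotein (Afp) is the albumin of the fetus, and the apolipoproteins Apoa1, Apob and Apoe build and direct lipid particles. Cubilin (Cubn) binds many ligands, amnionless (Amn) anchors it in the membrane, and the adaptor Dab2 links such receptors to clathrin.

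Promoter sequence is shown for 3 genes that lay below the signal floor described further on in both stem cell cultures and above it at day 4 (Afp, Apoa1 and Apob), and for Apoe, which was above it on every array. The stretches are the 250 bases before a listed transcript start, 5′ to 3′ on the gene's strand, from RefSeq (GRCm38.p6), whose promoter table held 8 of the 10 genes. The Afp and Apoa1 stretches end where the annotated gene begins, the Apob stretch runs past its outermost start, and the Apoe stretch lies inside the annotated gene, whose span reaches further upstream. Ttr and Spink1 are named only. Capitals mark matches, on either strand, to 5 short motifs. HNF1 factors bind sites with GTTAAT, the forkhead (FOX) factors bind TGTTTGC, and HNF4 binds sites that can hold CAAAGG. The other 2 are AGATAA, which the zinc finger factors of the Gata4 and Gata6 type bind, and the core promoter element TATAAA. No 2 matches overlap in these stretches. The motifs were chosen with the sequences in view.
Afp, chr5:90490464-90490713, plus strand: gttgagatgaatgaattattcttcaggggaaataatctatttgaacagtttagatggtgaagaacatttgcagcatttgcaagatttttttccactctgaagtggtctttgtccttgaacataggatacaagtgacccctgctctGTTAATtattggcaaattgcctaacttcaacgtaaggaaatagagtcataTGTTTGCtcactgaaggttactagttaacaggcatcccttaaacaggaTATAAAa
Apoa1, chr9:46228380-46228629, plus strand: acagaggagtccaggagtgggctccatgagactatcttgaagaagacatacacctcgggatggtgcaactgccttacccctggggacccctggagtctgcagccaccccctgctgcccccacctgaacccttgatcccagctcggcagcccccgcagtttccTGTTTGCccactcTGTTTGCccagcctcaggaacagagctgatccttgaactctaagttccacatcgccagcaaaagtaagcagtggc
Apob, chr12:7977427-7977676, plus strand: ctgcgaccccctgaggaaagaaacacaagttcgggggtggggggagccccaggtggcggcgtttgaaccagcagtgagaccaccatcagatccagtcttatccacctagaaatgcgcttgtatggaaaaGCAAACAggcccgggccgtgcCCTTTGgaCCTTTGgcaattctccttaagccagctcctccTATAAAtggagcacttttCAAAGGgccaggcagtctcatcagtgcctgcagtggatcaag
Apoe, chr7:19699189-19699438, minus strand, the first of its 3 starts in the table: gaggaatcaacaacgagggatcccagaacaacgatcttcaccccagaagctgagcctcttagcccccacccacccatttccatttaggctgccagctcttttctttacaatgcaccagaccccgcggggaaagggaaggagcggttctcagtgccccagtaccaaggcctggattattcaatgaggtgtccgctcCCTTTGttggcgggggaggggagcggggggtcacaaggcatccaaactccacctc

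The Afp stretch held a GTTAAT match that begins at position -105 from the start, and a TGTTTGC match at -55. Apoa1 held 2 TGTTTGC matches, at -88 and -75. Apob held 1 TGTTTGC match, on the opposite strand, and 3 CAAAGG matches, while Apoe held 1 CAAAGG match. Over all 32851 stretches of this length in the table, GTTAAT was found in 6.43%, AGATAA in 9.99%, TGTTTGC in 4.30%, CAAAGG in 17.6% and TATAAA in 12.4%. Before any listed start of the 8 genes, GTTAAT was found in 3 (Afp, Apoe and Dab2), AGATAA in 0, TGTTTGC in 3 (Afp, Apoa1 and Apob), CAAAGG in 3 (Apob, Apoe and Cubn) and TATAAA in 4 (Afp, Apob, Apoe and Rbp4). Genes with several starts had more sequence searched. A match is a string of letters and says nothing of binding. CpG sites, the usual target of DNA methylation, numbered 1 in the Afp stretch, 4 in Apoa1, 7 in Apob and 8 in Apoe, against a median of 6 over all stretches. Rbp4 and Dab2 each have 2 starts in the table that differ in this, with 5 and 28 CpG sites for Rbp4 and 2 and 17 for Dab2. The arrays do not say which start was used.

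Levels below are log2 MAS5 signals of a gene's brightest probe set, 1 value per array. Signals under a floor of 41.2 (log2 5.37), a percentile of the arrays and not a measured background, were set to it before differences were taken. Between single arrays, a difference from a floored level is a lower bound in size, written as at least that much. Fitted differences over both lines take floored levels at the floor, so they depend on it and are not bounds. The number of arrays limits the precision. Array medians lay between 6.02 and 6.19, and the 13277 genes whose signal averaged no less than the floor were tested and are called measured. Pou5f1, which encodes the pluripotency factor OCT4, had levels of 13.66, 13.53 and 13.56 in the deletion line at days 0, 4 and 7 while the full-length line had 14.02, 13.89 and 13.21, and all 10 stem cell markers examined were above the floor on all 6 arrays.

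**Figure D1:**
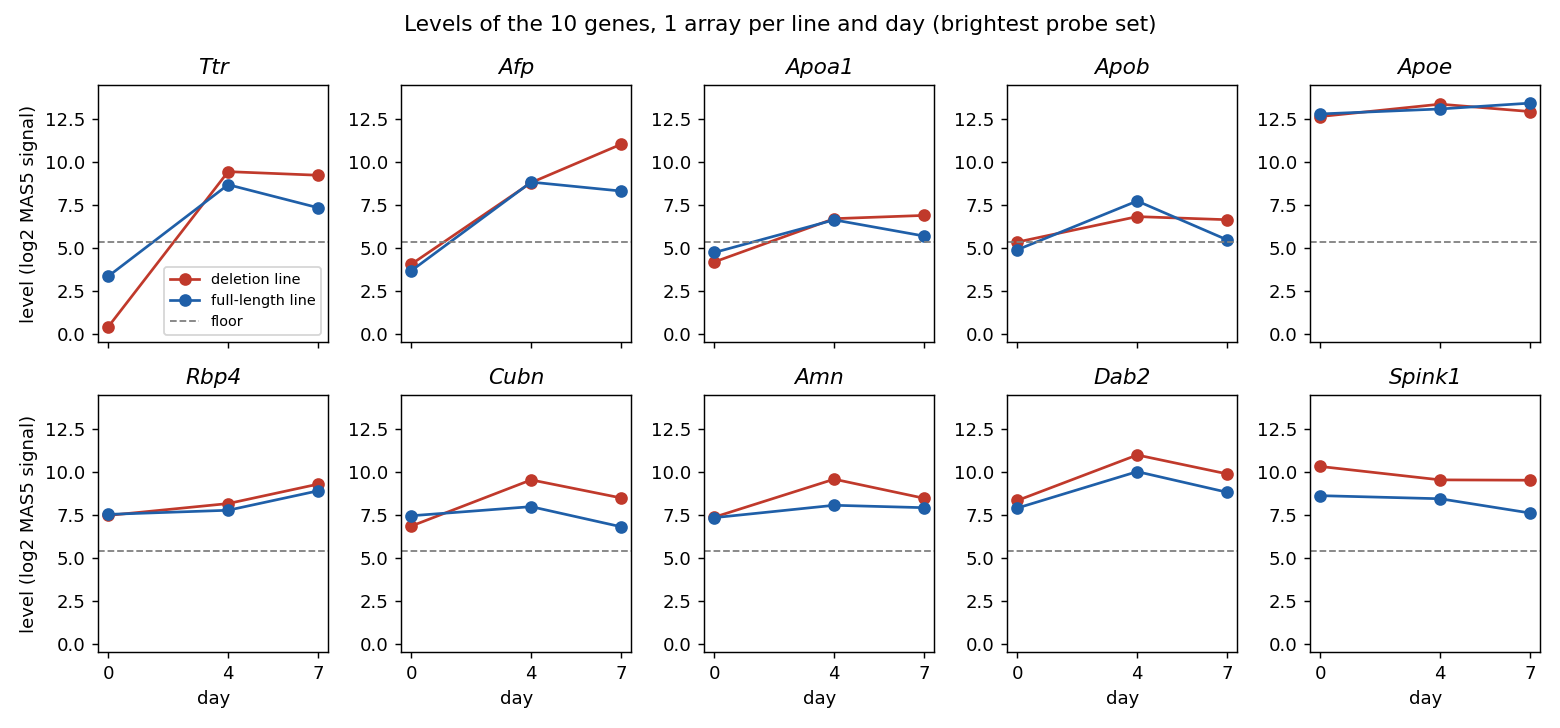
Levels (log2 MAS5 signal, vertical axis) of each of the 10 genes by day (horizontal axis), with 1 array per point, the deletion line in red and the full-length line in blue. Ttr, Afp, Apoa1 and Apob start below the dashed floor at 5.37 in both lines, Apoe stays between 12.66 and 13.44, and Spink1 is higher in the deletion line at each day.

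Among the carriers of small molecules, Ttr rose after LIF was withdrawn. Its levels at days 0, 4 and 7 were 0.42, 9.45 and 9.24 in the deletion line and 3.36, 8.69 and 7.35 in the full-length line. Both day 0 arrays lay far below the floor and all later arrays well above it. Day 4 was higher than day 0 by at least 16.97-fold in the deletion line and at least 10.02-fold in the full-length line. Over both lines the fitted log2 difference, with day 0 at the floor, was 3.71 (SE 0.46, limma adjusted p = 0.0166), and with a floor at the 60th percentile it was 2.07 (adjusted p = 0.083). From day 4 to day 7 the level stayed within 1.16-fold in the deletion line and was 2.53-fold lower in the full-length line, and the mean change was not called (log2 -0.78, SE 0.46, adjusted p = 0.57). All 4 Ttr probe sets gave the same order of days, with day 4 over day 0 differences between 2.93 and 3.71 when day 0, below the floor for all 4, was set to it.

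Rbp4 followed another course. Levels were 7.47, 8.16 and 9.29 in the deletion line at days 0, 4 and 7 and 7.53, 7.77 and 8.90 in the full-length line. In each line the level was lowest at day 0 and highest at day 7, the arrays of the 3 days did not overlap, and the lines were 0.06 apart at day 0. Day 7 lay above day 4 by 2.19-fold in each line, a mean log2 change of 1.13 (SE 0.30, adjusted p = 0.23), and above day 0 by log2 1.60 (SE 0.30, adjusted p = 0.058). Neither passed the threshold of 0.05. With arrays scaled to equal medians or with a robust variance prior, the change of day 7 over day 0 passed it, at an adjusted p of 0.049 in each. It passed under no other setting, with a limma adjusted p of 0.094 with probe sets averaged and 0.33 with dim genes kept in.

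Afp, the fetal albumin relative, gave the widest range of the 10 genes above the floor. Its levels were 4.06, 8.81 and 11.04 in the deletion line at days 0, 4 and 7 and 3.68, 8.84 and 8.32 in the full-length line. By this brightest probe set the lines lay within 0.03 of each other at day 4. At day 7 they were 2.72 apart, with the deletion line 6.59-fold higher. The day 4 difference, deletion minus full-length line, was -0.78 by the second brightest probe set and 0.78 by the third. Over both lines Afp was higher at day 4 than at day 0, taken at the floor, by a fitted log2 difference of 3.46 (SE 0.64, adjusted p = 0.049), and at day 7 by 4.32 (SE 0.64, adjusted p = 0.037). The call at day 4 was close to the threshold and was lost with a robust variance prior, with quantile normalisation or with a higher floor. It was lost too with dim genes kept in, with probe sets averaged, with no variance trend and without line in the model. Of its 5 probe sets, 3 gave day 4 over day 0 differences of 1.91 to 3.46, again with day 0 at the floor, and the other 2 lay below the floor on 5 or on all 6 arrays.

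Of the apolipoproteins, Apoe was above the floor on every array. Apoe, the ligand by which particles are taken up through receptors of the LDL receptor family, had levels of 12.66, 13.38 and 12.95 in the deletion line at days 0, 4 and 7 and 12.81, 13.10 and 13.44 in the full-length line. All 6 arrays lay within 0.78, the day 0 arrays being the lowest of each line. Day 4 over day 0 was log2 0.51 (SE 0.20, adjusted p = 0.27), with a 95% interval of 0.04 to 0.97.

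Apoa1, the main protein of high-density lipoprotein, had levels of 4.19, 6.71 and 6.90 in the deletion line at days 0, 4 and 7 and 4.74, 6.64 and 5.70 in the full-length line. Apob, the backbone of the particles that export fat, had levels of 5.35, 6.83 and 6.65 in the deletion line and 4.90, 7.74 and 5.48 in the full-length line. Both genes were below the floor on the day 0 arrays and above it on the later ones, though the full-length day 7 arrays were close to it. With day 0 at the floor, the fitted day 4 over day 0 differences were 1.31 for Apoa1 (SE 0.42, adjusted p = 0.18) and 1.92 for Apob (SE 0.51, adjusted p = 0.12), and neither was called. The 4 Apoa1 probe sets, all below the floor at day 0, gave 1.05 to 1.31. The second Apob probe set, below the floor on 5 of 6 arrays, gave -0.18, against the sign of the brighter one. Its 1 array above the floor was that of the deletion line at day 0, at 5.72.

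Of the uptake genes, Dab2 rose in both lines. Its levels at days 0, 4 and 7 were 8.34, 10.99 and 9.89 in the deletion line and 7.90, 10.02 and 8.82 in the full-length line. Each line was highest at day 4 and lowest at day 0, and both day 4 arrays lay above the other 4. The rise to day 4 was 6.28-fold in the deletion line and 4.35-fold in the full-length line, a mean log2 difference of 2.39 (SE 0.25, adjusted p = 0.0101). Dab2 gave the smallest unadjusted p of the 10 genes in that comparison, at rank 23 of 13277. Day 7 was lower than day 4 by 2.14-fold and 2.30-fold in the same order of lines, which was not called (log2 -1.15, SE 0.25, adjusted p = 0.18). The 3 Dab2 probe sets above the floor agreed in order, with day 4 over day 0 differences of 1.78 to 2.39.

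The receptor pair Cubn and Amn differed more between the lines. Cubn had levels of 6.85, 9.54 and 8.49 in the deletion line at days 0, 4 and 7 and 7.45, 7.98 and 6.81 in the full-length line. Amn had levels of 7.37, 9.58 and 8.47 in the deletion line and 7.34, 8.06 and 7.92 in the full-length line. At day 4 the deletion line was above the full-length line by 2.95-fold for Cubn and 2.87-fold for Amn, whereas at day 0 Cubn was 1.52-fold lower in the deletion line and Amn within 1.02-fold. Within the deletion line day 4 was above day 0 by 6.45-fold for Cubn and 4.63-fold for Amn, and within the full-length line by 1.44-fold and 1.65-fold. Over both lines the differences of 1.61 (SE 0.55, adjusted p = 0.20) for Cubn and 1.47 (SE 0.39, adjusted p = 0.13) for Amn were not called. The dimmer Cubn probe set gave 1.02 for the same change.

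Spink1, which encodes a secreted inhibitor of trypsin, did not follow the others. Levels were 10.32, 9.54 and 9.52 in the deletion line at days 0, 4 and 7 and 8.62, 8.44 and 7.61 in the full-length line. Every array of the deletion line was above every array of the full-length line. The deletion line was 3.25-fold, 2.14-fold and 3.76-fold higher at days 0, 4 and 7, a mean log2 difference of 1.57 (SE 0.23, 95% interval 1.04 to 2.10). With an adjusted p of 0.23 this was not called, and over the other settings the adjusted p ranged from 0.087 to 0.79. Among all 13277 genes tested, 10 were at least 2-fold higher in the deletion line at all 3 days (0.0753%) and Spink1 was one of them, while 0.0979% were lower at all 3 days. Its day 7 over day 0 difference was -0.91 (SE 0.28, adjusted p = 0.17).

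The first day comparison addresses the response to LIF withdrawal, aggregation and attachment. Ttr, Afp and Dab2 were called higher at day 4, which is 3 of the 10 genes, against 0.881% of all genes tested called higher, and 0 of the 10 were called lower, against 0.7% (1.58% in either direction). At an unadjusted p under 0.05 there were 8 of the 10, against 16.2%. Day 4 was at least 2-fold above day 0 for 7 of the 10 in the deletion line, namely Ttr, Afp, Apoa1, Apob, Cubn, Amn and Dab2, and 0 were 2-fold lower, where 6.24% and 4.07% of all genes were. In the full-length line 5 of the 10 were 2-fold higher, namely Ttr, Afp, Apoa1, Apob and Dab2, and 0 lower, against 8.14% and 5.02%. Those 5 were 2-fold higher in both lines, against 3.05% of all genes. Another 6 genes had positive differences that were not called, and Spink1 had a difference of -0.48 (adjusted p = 0.46). The median log2 difference over the 10 genes was 1.54, beside 0.05 over all genes tested. Ttr, Afp, Apoa1 and Apob passed the filter on low signals only through days 4 and 7, so their differences are in part set by that filter. Of the 6 genes above the floor on all arrays, 1 was called higher, Dab2, and their median was 0.99. In bulk RNA, fewer cells of a type and less RNA per cell cannot be told apart.

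These calls rest on 2 arrays a day. Leaving out a day 0 or day 4 array of either line left 1 array for that day. Those fits are given as effect sizes only and do not show that the calls hold without such an array. Over those fits the log2 difference ran from 3.04 to 4.37 for Ttr, 2.77 to 4.16 for Afp and 2.10 to 2.68 for Dab2. Without either day 7 array, Ttr, Afp and Dab2 remained called. The count was also 0 when dim genes were kept in, when a gene's probe sets were averaged, when the variance had no trend and when line was left out of the model. With a floor at the 60th percentile only Dab2 was called.

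**Figure D2:**
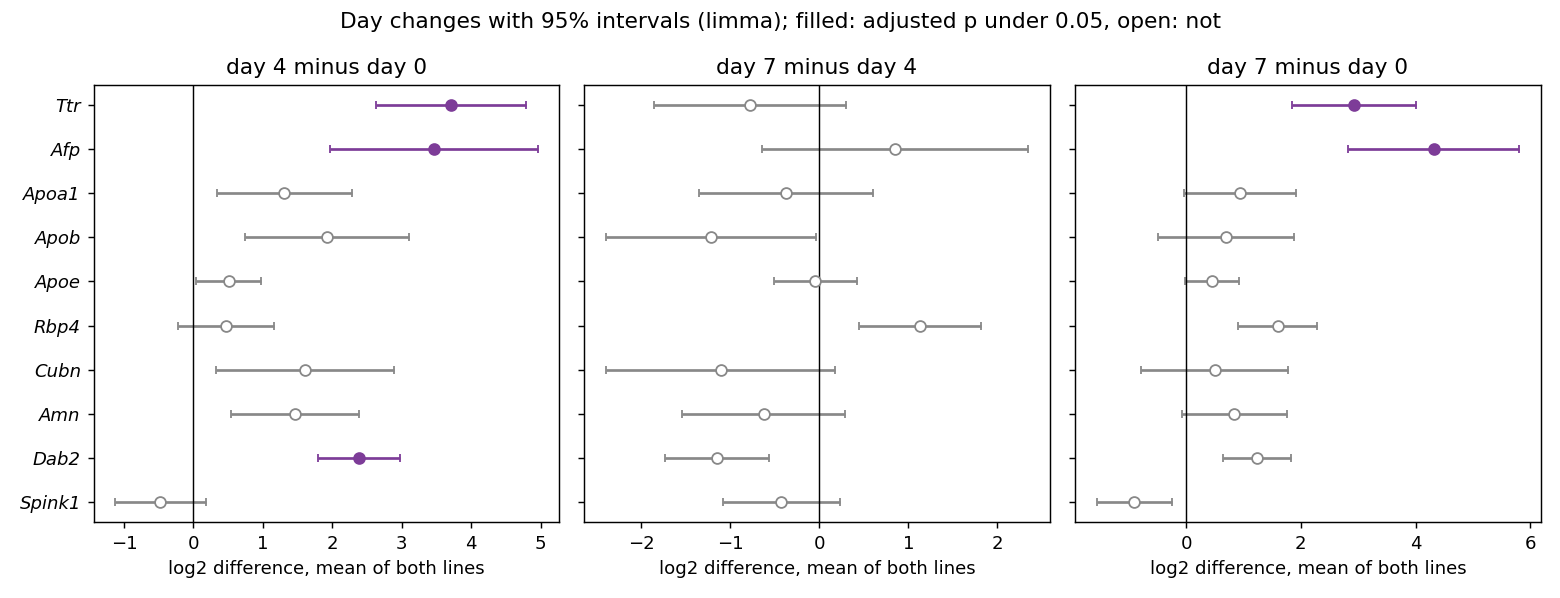
Mean log2 differences over both lines between days (horizontal axes) for the 10 genes, with 95% intervals from limma over 6 arrays. Ttr, Afp and Dab2 at day 4 over day 0, and Ttr and Afp at day 7 over day 0, are filled because their adjusted p was under 0.05, and Rbp4 has the highest day 7 minus day 4 difference, 1.13.

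The second day comparison covers the Activin A phase, in which time, medium and Activin A changed together. With limma 0 of the 10 genes were called in either direction, against 0.0151% of all genes called higher, and 3 had an unadjusted p under 0.05 (11.9% of all genes), namely Apob, Rbp4 and Dab2. Only Rbp4 and Afp had positive mean differences, and Afp's of 0.86 turned to -0.51 without the deletion line's day 7 array. The median was -0.53 over the 10 genes and -0.01 over all genes. In the deletion line Afp and Rbp4 were at least 2-fold higher and Cubn, Amn and Dab2 at least 2-fold lower, where 4.76% and 5.97% of all genes moved that far up and down. In the full-length line Rbp4 was at least 2-fold higher and Ttr, Apob, Cubn and Dab2 at least 2-fold lower, against 5.2% and 3.14%. This comparison shares its day 4 arrays with the preceding one, so an error at day 4 enters both, with opposite sign.

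In the comparison of day 7 with day 0, which shares arrays with both of the others, Ttr and Afp were called higher at day 7, 2 of the 10 genes where 0.64% of all genes were called higher, 0.392% lower and 1.03% in either direction. At an unadjusted p under 0.05 there were 5 of the 10, against 17.3%. Both were below the floor on the day 0 arrays and passed the filter only through the later days, and of the 6 genes above the floor on all arrays 0 were called (median log2 difference 0.67). Ttr had a fitted log2 difference of 2.93 from day 0 at the floor (SE 0.46, adjusted p = 0.043). Leaving out any single array ended the call of Ttr, and that of Afp held only without the full-length day 7 array. Both calls also ended with dim genes kept in, with probe sets averaged, with the higher floor, with no variance trend and without line in the model. Over all genes these settings called 0, 5, 61, 3 and 12 in the same order, where the main fit called 137. Dab2 had a difference of 1.24 (SE 0.25, adjusted p = 0.073). At least 2-fold higher levels were seen at day 7 for 8 of the 10 genes in the deletion line, against 6.25% of all genes, and for 3 of the 10 in the full-length line, against 9.95%. The 8 genes were all but Apoe and Spink1, and the 3 were Ttr, Afp and Rbp4. At least 2-fold lower were 0 of the 10 in the deletion line (4.72% of all genes) and 1 of the 10, Spink1, in the full-length line (4.26%). By its brightest probe set, Cubn lay 3.12-fold above its day 0 level in the deletion line and 1.56-fold below it in the full-length line.

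The line comparison sets the line with the shortened DNMT1 against the line with the complete one. For the line effect over all days, limma called 0 of the 10 genes and 0 of all genes (0%), and 3 of the 10, namely Ttr, Dab2 and Spink1, had an unadjusted p under 0.05 (12.2% of all genes). The median log2 difference, deletion minus full-length line, was 0.76 over the 10 genes and -0.06 over all genes, and 9 of the 10 differences were positive, Apoe being the exception with -0.12. Over the 6 genes above the floor on all arrays the median was 0.76 too. Counted day by day, 1 of the 10 genes was at least 2-fold higher in the deletion line at day 0 (Spink1, against 3.14% of all genes), 3 at day 4 (Cubn, Amn and Spink1, against 2.43%) and 7 at day 7 (against 3.95%). Ttr, Afp, Apoa1 and Apob were below the floor in both lines at day 0. Their difference there was set to 0, so they could not be counted at that day, and their mean line differences include that 0. The 7 at day 7 were Ttr, Afp, Apoa1, Apob, Cubn, Dab2 and Spink1, and 0 of the 10 were at least 2-fold lower on any day, where 2.82%, 3.52% and 8.92% of all genes were. With 1 array per line and day, these differences have no test, and whether the lines differ in their time courses was not tested. Without the deletion or the full-length line's day 7 array, Afp's mean line difference of 0.90 turned to -0.015 and Apob's of 0.09 to -0.455.

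**Figure D3:**
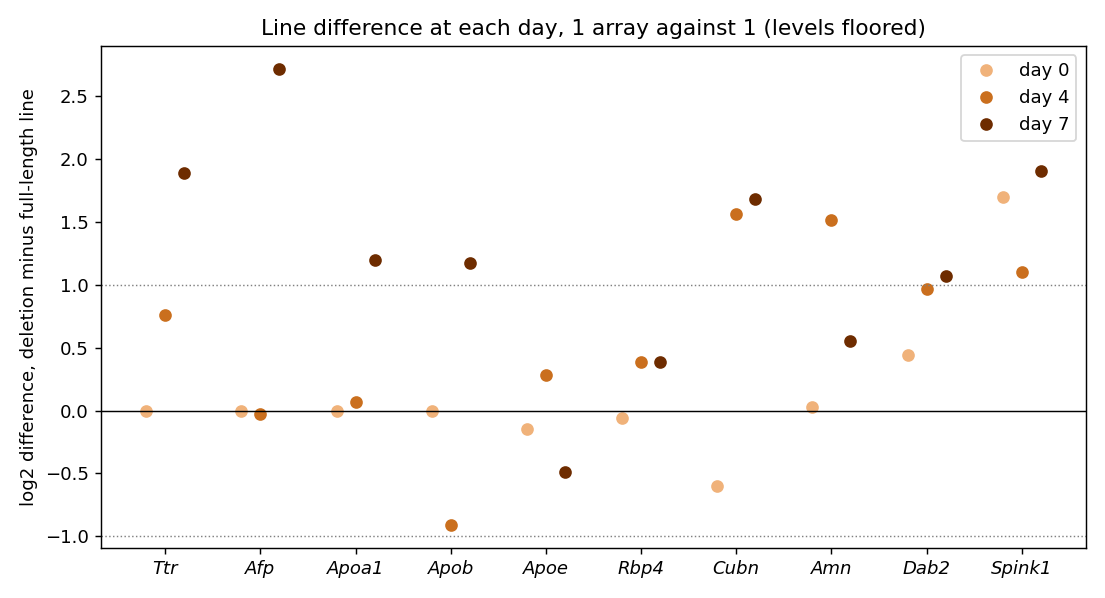
Log2 difference, deletion minus full-length line, for each gene (horizontal axis) at days 0, 4 and 7, from 1 array against 1 after the floor was applied. At day 7 the values of 7 genes lie above the dotted line at 1, the highest being Afp at 2.72, and 4 genes are at 0 on day 0 because both arrays were below the floor.

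Agreement between probe sets could be read for the 6 genes with more than 1. Where a dimmer probe set was above the floor on at least 2 arrays, it gave the sign of the brightest one for day 4 over day 0 in each case. Line differences at day 7 were positive for each such probe set too, from 1.15 to 1.89 for Ttr, 2.50 to 2.72 for Afp, 0.78 to 1.68 for Cubn and 1.03 to 1.18 for Dab2. For Apoa1 the brightest gave 1.20, and the other 3, below the floor in the full-length line at day 7, gave at least 1.00 to at least 1.61. For Cubn the sets differed over the whole course, with day 7 over day 0 at 0.50 for the brighter and -0.60 for the dimmer.

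**Figure D4:**
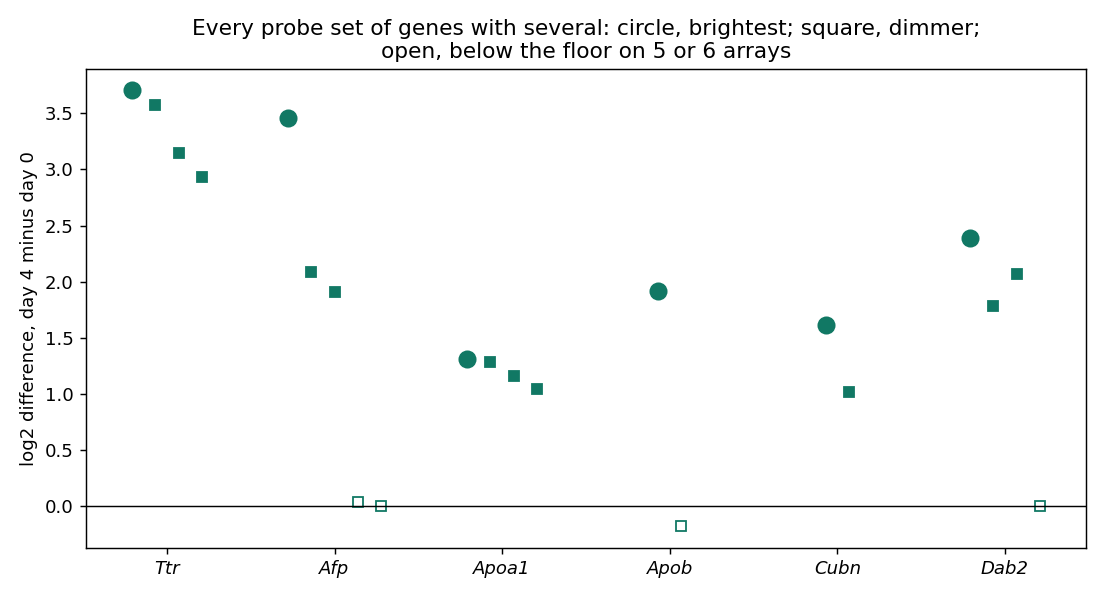
Log2 difference of day 4 over day 0 (vertical axis), averaged over both lines, for every probe set of the 6 genes that have several, with circles for the brightest and squares for the others. Filled symbols lie between 1.02 and 3.71, and the 4 open squares, near 0, are probe sets below the floor on 5 or 6 arrays.

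Among the 1105 genes that ranged over at least 2 log2 on the 6 arrays, 7 of the 10 could be compared by the shape of their course. These values describe 6 points that share arrays and scaling, and carry no test. To Ttr, the nearest genes outside the 10 were Nfkb2, an NF-kappaB subunit (r = 0.957), Cited1, a transcriptional coactivator (r = 0.951), and Clic6, of the chloride channel family (r = 0.939). Among 1104 genes compared, Dab2 ranked 3 for Ttr (r = 0.944) and Afp ranked 6 (r = 0.925). For Afp they were Cyp26a1, which degrades retinoic acid (r = 0.971), Gpat3, an acyltransferase of lipid synthesis (r = 0.953), and the protease gene Ctsh (r = 0.953). Cyp26a1 had levels of 4.43, 8.30 and 9.22 in the deletion line at days 0, 4 and 7 and 3.68, 7.25 and 7.81 in the full-length line.

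For Amn the nearest were the galectin gene Lgals2 (r = 0.955), Gpr135 (r = 0.948) and Tfec (r = 0.929), and for Cubn they were Tnnc2, a troponin (r = 0.930), Gpr135 (r = 0.922) and Tfec (r = 0.912). Cubn and Amn correlated at 0.903 with each other, at ranks 4 and 7. Gpr135 also stood nearest to Dab2 (r = 0.964), before Homez (r = 0.944) and the homeobox gene Otx2 (r = 0.929). Apob was nearest to Eomes, a T-box factor (r = 0.940), Tent5a (r = 0.925) and Otx2 (r = 0.906). Spink1 stood apart from the other 6, with r between -0.13 and 0.28, and was nearest to Dhx38 (r = 0.949), Snhg3 (r = 0.938) and Bicral (r = 0.881).

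Further genes of the same tissue were read from lists. Of 20 other secreted and lipid transport genes, 6 were measured and 0 were called between days 4 and 0 with limma, against 1.58% of all genes. At an unadjusted p under 0.05 there were 0, against 16.2%. The largest difference was that of Mttp, which loads lipid onto apolipoprotein B (log2 0.73, SE 0.43, adjusted p = 0.47), followed by Apoc2 (0.56), Apoa2 (-0.50) and Apoc1 (-0.47). The serum albumin gene Alb was below the floor on all 6 arrays, at 1.56 to 5.35, as were the fibrinogen genes Fga, Fgb and Fgg. Of 16 partners of endocytic uptake, 14 were measured and 1 was called higher at day 4, against 0.881% of all genes, with 7 at an unadjusted p under 0.05, against 16.2%. It was the endosomal chloride transporter gene Clcn5 (log2 1.68, SE 0.23, adjusted p = 0.023). Lrp2, which encodes megalin, the co-receptor of cubilin, had levels of 8.28, 9.73 and 8.75 in the deletion line at days 0, 4 and 7 and 7.07, 10.97 and 9.48 in the full-length line. Its day 4 over day 0 difference of 2.68 missed the threshold (SE 0.52, adjusted p = 0.056), as did that of Fcgrt, the neonatal Fc receptor (-1.51, adjusted p = 0.059), and that of the lipoprotein receptor Vldlr (1.11, adjusted p = 0.13). Unlike Cubn, Lrp2 was higher in the deletion line at day 0 and lower in it at days 4 and 7.

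Of 12 endoderm transcription factors, 11 were measured and 1 was called higher at day 4 (0.881% of all genes), Foxa1 (log2 2.14, SE 0.36, adjusted p = 0.041). Sox17 (2.08, adjusted p = 0.073), Eomes (1.94, adjusted p = 0.088) and Sox7 (1.05, adjusted p = 0.35) were not called, and the list's median was 0.83. Hnf4a, a factor of visceral endoderm and liver, was not called (log2 -0.74, adjusted p = 0.51). Sox17 stood at 9.58 in the deletion line and 7.96 in the full-length line at day 4. Of 8 signals of the anterior and other visceral endoderm, 7 were measured and 2 were called higher at day 4 (0.881% of all genes), the angiomotin gene Amot (log2 2.91, SE 0.27, adjusted p = 0.0063) and the Wnt inhibitor gene Dkk1 (log2 2.35, SE 0.42, adjusted p = 0.042). In that list Lefty1 (-0.86, adjusted p = 0.62) and Bmp2 (0.62, adjusted p = 0.52) were not called, and Cer1 did not reach the filter on mean signal. Its levels were 0.97, 5.43 and 4.6 in the deletion line and 2.63, 6.05 and 5.27 in the full-length line, above the floor at day 4 only.

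Markers of other cell types were read over the same days. All 10 parietal endoderm genes were measured and 0 were called at day 4 with limma (4 at an unadjusted p under 0.05), against 1.58% and 16.2% of all genes, with Thbd at -1.89 (adjusted p = 0.12), Pth1r at 1.28, Col4a1 at 1.08 and Col4a2 at 1.02, and at day 7 over day 0 the basement membrane collagen gene Col4a1 was called higher (log2 1.49, SE 0.23, adjusted p = 0.041). Of 10 mature hepatocyte genes 5 were measured and 0 were called at day 4 (0 at an unadjusted p under 0.05), against 1.58% and 16.2% of all genes. Cps1 at -0.62 and Tdo2 at 0.53 were the farthest from 0, then Cyp7a1 at 0.16 and Hpd at -0.14. Tat, G6pc and Pck1 did not reach the filter on mean signal, though Tat and Pck1 were above the floor on some arrays.

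Of 10 fibroblast and feeder genes 5 were called lower at day 4, against 0.7% of all genes, namely S100a4 (-3.98, adjusted p = 0.0057), Postn (-3.91, adjusted p = 0.041), Bgn (-3.56, adjusted p = 0.0016), Col1a2 (-3.42, adjusted p = 0.025) and Thy1 (-1.95, adjusted p = 0.033). The collagen gene Col3a1, of the same list, had a difference of -3.91 that was not called. The summed signal of the 10 was 14462, 1134 and 2296 in the deletion line at days 0, 4 and 7 and 6290, 1402 and 1867 in the full-length line. Of 9 measured macrophage genes, of 10 listed, 2 were called lower at day 4 (0.7% of all genes), Lyz2 (-4.70, adjusted p = 0.024) and Ctss (-3.39, adjusted p = 0.033), beside Tyrobp (-1.14) and Csf1r (-0.85) without a call. Their summed signal was 5413, 895 and 1326 in the deletion line and 1925, 752 and 1760 in the full-length line, and 9 of the 10 were above the floor on each day 0 array. Apoe and Dab2 are expressed by macrophages and fibroblasts too, and both marker sums were lower at day 4, when Dab2 was higher, than at day 0. Their part in the levels of Apoe and Dab2 was not tested.

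Of the 10 stem cell markers 2 were called lower at day 4 (0.7% of all genes), the naive pluripotency factor genes Klf4 (-3.63, adjusted p = 0.00074) and Esrrb (-1.68, adjusted p = 0.035). Zfp42 (-1.08, adjusted p = 0.13) and Tdgf1 (-0.68, adjusted p = 0.14) were not called. Their summed signal was 118337, 97021 and 112969 in the deletion line at days 0, 4 and 7 and 145521, 81885 and 89105 in the full-length line. The sum over the 10 visceral endoderm genes, in which the Apoe probe set gives most of the signal, was 8610, 16601 and 13866 in the deletion line and 8415, 12088 and 13172 in the full-length line.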

How the data were processed

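The authors deposited 1 MAS5 signal per probe set and array, per the submitters' processing notes, and these values, from 0 to 15.68, were read as log2 from their range. The version of MAS5, its scaling target and the log base were not given in the sources used here. Samples were grouped by title. The source label of the deletion line's day 0 sample describes differentiated cells, and its title was followed. Gene names came from the 2016 annotation of the platform (34945 with 1 gene, 932 with several, 9160 with none). Of those with 1, 34741 were found in RefSeq's table and 0 symbols changed. Signals were floored at the median of the arrays' 40th percentiles (41.2). No label states that cultures were repeated, so p-values measure only the spread among these arrays.

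Line and day were fitted as additive factors with limma 3.58.1 in R 4.3.3, with trended variance and two-sided tests, and p-values were adjusted by Benjamini and Hochberg's method over 13277 genes (threshold 0.05). The model left 2 residual degrees of freedom, to which the prior added 5.63. The residual holds the difference of the lines' courses, and floored arrays lower it. The code was tested on simulated data. A single-array difference was counted from 2-fold upwards where the brighter signal was 2 or more times the floor. Named genes were the 10, the 3 nearest by Pearson correlation to each that ranged over at least 2 log2, up to 4 of each list with the largest day 4 change, and Pou5f1. Other list genes, and those that make up a count, were named after their values were seen. Members and lists were chosen with earlier results of these data known.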

Additional observations from a re-analysis of the deposited data

Results flagged for a closer look

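By their brightest probe sets, the lines moved in opposite directions for 4 genes over the same days, from 1 array against 1. The difference between the lines was not tested in any of them. Between days 4 and 7 Afp changed by log2 2.23 in the deletion line and -0.52 in the full-length line, a gap of 2.75. Its 3 probe sets above the floor all had the deletion line at least 2.50 higher at day 7. Apoa1 changed by 0.19 in the deletion line and -0.94 in the full-length line over those days, a gap of 1.13. Its dimmer probe sets differed in the deletion line, going from 7.01 to 6.8, from 6.88 to 6.36 and from 6.61 to 6.97. Each of them fell in the full-length line. Apoe changed by -0.43 in the deletion line and 0.34 in the full-length line, a gap of -0.77. Between days 0 and 7 Cubn changed by 1.64 in the deletion line and -0.64 in the full-length line, a gap of 2.28. By its dimmer probe set both lines were lower at day 7 than at day 0. Levels went from 6.24 to 6.15 in the deletion line and from 6.48 to 5.37, the floor, in the full-length line.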

How the results depend on the processing

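Of 64 counts of the 10 genes called, over 4 comparisons and 16 alternatives, 43 stayed within 1.5 times the main count. The 43 include every count of day 7 over day 4 and of the line difference, which had no call to lose. The 21 that moved were all of day 4 over day 0 and day 7 over day 0. At day 4 over day 0 the count of 3 became 1 with a floor at the 60th percentile and 0 with no filter on dim genes, with the mean of all probe sets, without a variance trend and with no other factor in the model. At day 7 over day 0 the count of 2 became 1 with quantile normalisation and 0 with the higher floor and under the same 4 settings. Leaving out 1 array gave 0 to 3 at day 4 and 0 to 1 at day 7 over day 0. Day 7 over day 4 and the line difference kept 0 throughout. Genes called over the whole table numbered 210, 2, 137 and 0 for day 4 over day 0, day 7 over day 4, day 7 over day 0 and the line difference. They numbered 0 to 320, 0 to 44, 0 to 227 and 0 to 4 over the alternatives. The cause was not tested.

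Of 632 values for single genes, 14 changed sign, all of uncalled differences. Without a change of sign, 50 values lost the call of the main fit and 2 gained one. These include fits that left 1 array for a day. Leaving out 1 array gave, for day 7 over day 4, -0.51 to 2.22 for Afp (lowest without the deletion day 7 array), -0.96 to 0.21 for Apoa1 (highest without the full-length day 7 array) and -0.345 to 0.255 for Apoe (0.23 without the deletion day 7 array). For day 7 over day 0 it gave -0.11 to 1.51 for Apob (lowest without the deletion day 7 array) and -0.61 to 1.61 for Cubn (-0.61 without the deletion day 0 and -0.10 without its day 7 array), and Cubn had -0.05 with probe sets averaged. For the line difference it gave -0.015 to 1.36 for Afp, -0.455 to 0.585 for Apob and -0.32 to 0.065 for Apoe, whose signs changed without either day 7 array. With 1 array per line and day, floored arrays add no spread, so errors of genes below the floor at day 0 may be too small. The labels give no replicate numbers, so arrays could be matched across days by line only. Days were compared within line through the line term, and without it 0 of the 10 genes were called.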
